A study of Mus musculus with 6 samples.

Results

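Oxidative phosphorylation is carried out by 5 protein complexes of the inner mitochondrial membrane, and the genes described here are those of the cell nucleus that encode their subunits. They were picked by gene symbol alone: every symbol starting with Nduf, Uqcr, Cox4 to Cox8 or Atp5, and the symbols Sdha, Sdhb, Sdhc, Sdhd and Cyc1. This rule took in 72 of the 8251 genes that the arrays read with a symbol of their own, through 100 probe sets, where a probe set is a group of short probes on the array that reads a transcript. Of the 72 genes, 63 were bright enough to be compared, and 61 of these encode subunits, the remaining pair being the complex I assembly factors Ndufaf1 and Ndufaf4. Counts over the 63, called the subunit genes below, include this pair.

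Each of the 6 arrays held total RNA of the liver of male mice 8 to 10 weeks of age, at 1 of 2 circadian times. CT02 lies 2 h and CT14 lies 14 h after the start of the subjective day. The groups were wild type with a C57BL/6 background, Clock mutant, and mice labelled Cry-deficient, each at CT02 and at CT14; of the last pair, the CT02 mice were described as lacking both Cry1 and Cry2. Each group had 1 array, so no spread between replicates was available and no single comparison below has a test. The Clock allele, the strain of the mutants and the number of livers behind an array were not given in the sources used here.

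Electrons from NADH enter the chain at complex I (NADH dehydrogenase, Nduf genes) and those from succinate at complex II (succinate dehydrogenase, Sdh genes), which is also an enzyme of the tricarboxylic acid cycle. Complex III (Uqcr genes and Cyc1) passes them to cytochrome c, complex IV (cytochrome c oxidase, Cox genes) passes them to oxygen, and complex V (ATP synthase, Atp5 genes) makes ATP from the proton gradient that results. Some subunits of complexes I, III, IV and V are encoded by mitochondrial DNA and are not among these genes. CLOCK pairs with BMAL1 and binds E-box sequences in promoters, and the cryptochromes CRY1 and CRY2 repress this pair. NRF1, GABP and the nuclear receptor ERRalpha (Esrra) are known activators of respiratory chain genes.

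RefSeq promoter sequences (assembly GRCm38.p6, from 250 bases before to 50 bases after a gene's start, given on the gene's strand) were found for 58 of the 72 genes and searched on both strands. The E-box CACGTG was found for 5 of the 58 (8.62%), against 12.2% of all genes bright enough to compare and 8.09% of all genes in the promoter table. The full NRF1 palindrome was found for 5 (8.62%, against 2.37% and 1.07%), namely Atp5g2, Atp5k, Cox6a1, Ndufaf4 and Uqcrc1, and with the fifth base free for 12 (20.7%, against 12.4% and 5.19%), which include the same 5. The GABP motif CCGGAAG was found for 16 (27.6%, against 20.8% and 9.93%), the YY1 motif AAGATGG for 8 (13.8%, against 9.08% and 7.28%) and the ERRalpha motif AAGGTCA for 5 (8.62%, against 4.36% and 5.38%). The E-box was therefore no more frequent here than among the other genes compared, while the NRF1 palindrome was found at a higher share. A match is only a run of letters and no site of binding.

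The 4 compared genes whose promoter held an E-box are shown because the mice differ in the factor that binds it, and Atp5g2 because it held the NRF1 palindrome and was higher in both Clock mutant arrays. Capitals mark every match to a motif searched on either strand: CACGTG in the first 4, with CCGGAAG (as CTTCCGG) and AAGGTCA (as TGACCTT) in Atp5l and AAGATGG (as CCATCTT) in Atp5pb, and the NRF1 palindrome in Atp5g2. They lie at chr19:4012706-4013005 (minus strand), chr17:33824322-33824621 (plus strand, 1 of 2 starts that RefSeq gives), chr9:44920693-44920992 (minus strand), chr3:105959214-105959513 (minus strand) and chr15:102670998-102671297 (minus strand).
Ndufv1: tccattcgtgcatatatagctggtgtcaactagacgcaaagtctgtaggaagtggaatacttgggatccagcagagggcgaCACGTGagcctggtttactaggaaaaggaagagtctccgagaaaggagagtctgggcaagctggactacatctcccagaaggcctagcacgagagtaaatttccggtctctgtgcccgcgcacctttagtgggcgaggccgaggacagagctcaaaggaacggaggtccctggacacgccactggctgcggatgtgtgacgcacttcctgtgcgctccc
Ndufa7: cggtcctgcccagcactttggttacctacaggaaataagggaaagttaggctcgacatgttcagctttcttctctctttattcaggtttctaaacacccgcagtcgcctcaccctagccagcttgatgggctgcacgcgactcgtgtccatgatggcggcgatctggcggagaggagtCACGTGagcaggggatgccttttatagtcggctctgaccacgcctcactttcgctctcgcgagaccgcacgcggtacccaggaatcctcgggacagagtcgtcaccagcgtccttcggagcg
Atp5l: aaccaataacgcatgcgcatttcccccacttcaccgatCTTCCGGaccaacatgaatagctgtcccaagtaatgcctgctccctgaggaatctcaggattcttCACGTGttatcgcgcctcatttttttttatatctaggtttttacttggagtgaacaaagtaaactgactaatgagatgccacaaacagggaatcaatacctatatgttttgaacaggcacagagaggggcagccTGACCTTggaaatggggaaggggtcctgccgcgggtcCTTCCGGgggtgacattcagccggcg
Atp5pb: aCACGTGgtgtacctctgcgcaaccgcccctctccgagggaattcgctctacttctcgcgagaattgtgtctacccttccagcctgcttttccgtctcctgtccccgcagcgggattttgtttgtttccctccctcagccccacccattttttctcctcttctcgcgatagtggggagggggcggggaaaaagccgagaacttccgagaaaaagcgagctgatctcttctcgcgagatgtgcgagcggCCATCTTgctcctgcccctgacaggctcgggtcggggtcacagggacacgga
Atp5g2: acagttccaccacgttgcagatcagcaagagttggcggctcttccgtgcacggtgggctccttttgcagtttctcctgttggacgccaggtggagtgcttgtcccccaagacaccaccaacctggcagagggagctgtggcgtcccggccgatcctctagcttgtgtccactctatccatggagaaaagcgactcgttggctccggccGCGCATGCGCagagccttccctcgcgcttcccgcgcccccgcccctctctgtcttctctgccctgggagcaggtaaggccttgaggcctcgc
The fifth gene with an E-box, Atp5g1, was too dim to compare. In wild-type liver the 4 genes shown for their E-box differed little between the times, with log2 ratios of CT14 over CT02 from -0.09 to 0.07 (median -0.05, against 0.02 in the other 46 compared genes with a promoter sequence). A second probe set of Atp5l gave 0.28. In Clock mutants the 4 ran from -0.49 to 0.20 (median -0.40, against -0.19). The -0.49 was that of Atp5l, whose second probe set gave 0.58. The medians of the 4 genes in Clock mutants over wild type were 0.30 at CT02 (against 0.25) and -0.07 at CT14 (against 0.06). Atp5l entered these with 0.11 and -0.30, and its second probe set gave 0.18 and 0.48. These differences were not tested.

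Levels are given in scaled units, which are the deposited intensities after each array was divided by a factor that brings the arrays to a common level. Values below 606 scaled units, the median of all probe sets, were set to this floor, and a gene was compared if its mean over the 6 arrays reached the floor, which 4844 genes did. A gene is represented by its brightest probe set. Differences are log2 ratios of 2 arrays, so that 1 stands for a doubling, and no level of a probe set is set against that of another. Since most subunit genes are bright, group values are set beside those of the brightest 25% of the 4844 genes as well as those of all.

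Array-wide facts that touch the results are these. The mean deposited intensity was 1637 on the Clock mutant CT02 array and between 2182 and 2486 on the other 5. The Actb signal of the 3' probe set over that of the 5' probe set was 2.68 on the Clock mutant CT02 array and 1.70 on the CT02 array labelled Cry-deficient, against 0.84 to 1.15 on the other 4, and that of Gapdh was 2.37 on the latter array against 0.56 to 0.72 on the other 5. The same ratio for Pcx was 19.7, 17.7 and 25.3 on the CT02 arrays of wild type, Clock mutants and the mice labelled Cry-deficient, and 3.96, 6.57 and 7.14 at CT14, so it was higher at CT02 in all 3 genotypes. The part of these ratios in the time comparisons was not tested. Of 7 hepatocyte markers, 6 were bright enough to compare, although Apoa1 among them was above the floor on only 3 of the 6 arrays. The summed level of the hepatocyte markers ran from 65312 (Clock mutant CT14) to 95320 (Clock mutant CT02). All 4 T cell and all 3 bile duct markers were below the floor on every array. Of 9 muscle markers, 1 (Ckm) was bright enough to compare and 5, Mb among them, were below the floor on every array. Acta1 (838) and Myh4 (776) were above the floor on the CT02 array labelled Cry-deficient alone, and Actn3 (783) on the Clock mutant CT02 array alone. The muscle sum ran from 2365 (wild type CT02) to 4578 (CT02 array labelled Cry-deficient), and its part in the comparisons was not tested. The Kupffer cell sum ran from 24968 to 42617. The sum of 3 kidney genes, of which Kap was bright enough to compare, was 3625 and 5474 (CT02 and CT14) in wild type, 563 and 492 in Clock mutants and 1261 and 3480 in the mice labelled Cry-deficient, so it was lowest on both Clock mutant arrays. Its part in the Clock mutant comparisons with wild type was not tested. In whole liver, fewer cells of a type and less RNA per cell cannot be told apart. The Cry1 probe set read 3845 and 4718 on the CT02 and CT14 arrays labelled Cry-deficient and 1833 and 2723 in wild type; where it lies relative to the altered sequence was not given in the sources used here. It therefore does not check the labels, and statements on these arrays rest on the label.

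Among the complexes, 26 compared genes belonged to complex I, 4 to complex II, 8 to complex III, 10 to complex IV and 13 to complex V. The 9 genes too dim to compare were Ndufa1, Ndufa12 and Ndufs4 of complex I, Cox5a, Cox6a2, Cox6b1, Cox7a1 and Cox8a of complex IV, and Atp5g1 of complex V. Cox6a2 and Cox7a1 encode the heart and muscle forms of their subunits, and both were below the floor on every array. The others encode forms made in most tissues, and Ndufa12, Ndufs4 and Cox8a were also below the floor throughout, so a dim probe set did not mark a gene as unused in liver. At the edge of the filter, Atp5g1 with a mean of 550 scaled units lay just outside, and Ndufc2 with 673 and Cox8b with 1127 lay just inside.

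Of the isoform pairs, Cox6a1 (the form of liver and most tissues) ran from 21243 to 30860 scaled units, and Cox7a2, the liver form of subunit 7a, from 17002 to 25429. Cox8b, known from heart, muscle and brown fat, was read by a single informative probe set at 727 to 1465, while the brown fat marker Ucp1 was below the floor on every array. Probe sets named for the testis forms Cox6b2 and Cox8c read 966 to 1820 and 3323 to 4735. The Cox6b2 probe set is of the _f_at type, which the maker assigns to probes shared by a family of sequences, and the other 2 Cox6b2 probe sets were below the floor on every array.

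**Figure D1:**
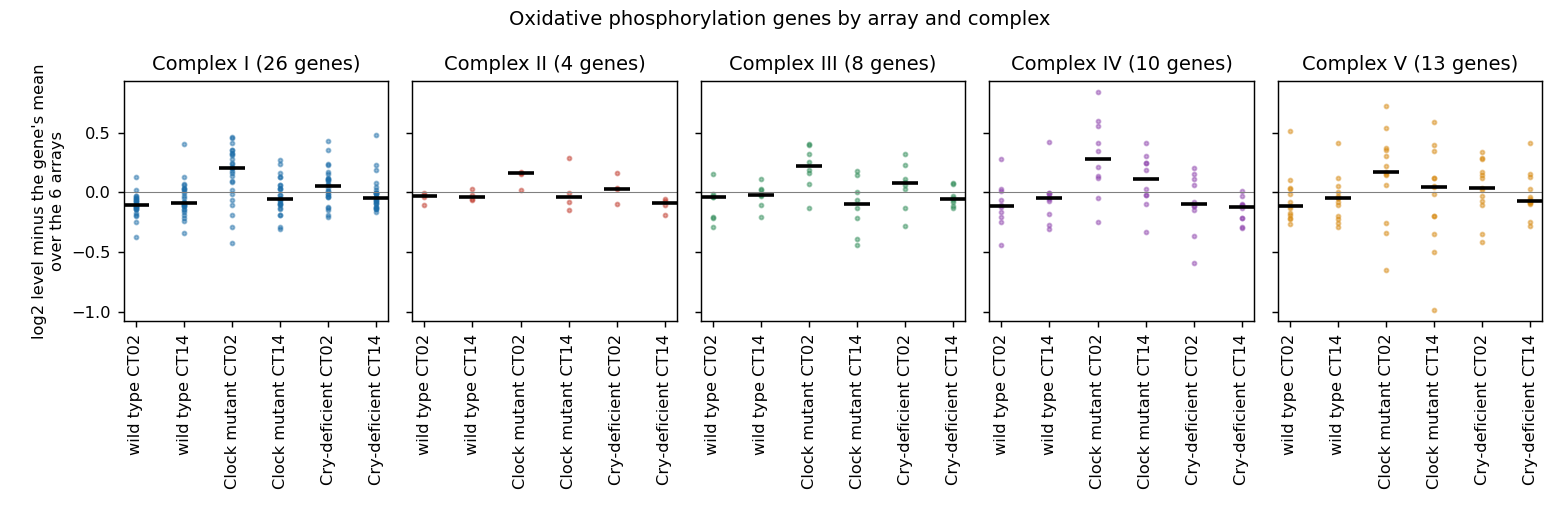
Log2 level of each compared subunit gene on the 6 arrays minus that gene's own mean over them, in 1 panel per complex, with 1 point per gene and a bar at the median. The median of every complex is highest on the CT02 array of Clock mutants, and the points of complexes IV and V spread most on the arrays of Clock mutants.

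In wild-type liver the subunit genes differed little between CT02 and CT14. Their median log2 ratio was 0.02, against 0.00 over all genes compared, with 41 of 63 higher and 22 lower at CT14, and 88.9% lay within 0.2 of 0, against 50.8% of all genes, 68.3% of the brightest 25% and 81.9% of the brightest 10%. None was 2-fold apart, where 4.56% of all genes were (2.48% higher and 2.09% lower) and 1.82% of the brightest 25%, so a count of 0 is near the share of other bright genes. The spread of the ratios (SD over genes) was 0.16, against 0.45 over all genes and 0.31 over the brightest 25%.

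The gene that differed most was Ndufaf4, which encodes an assembly factor of complex I. It read 1649 at CT02 and 2961 at CT14 in wild type, a log2 ratio of 0.84, but 1768 and 1623 in Clock mutants and 1986 and 2523 in the mice labelled Cry-deficient. Its wild-type CT14 value was the highest of the 6, and its promoter holds the NRF1 palindrome. Next came Ndufc2, a dim accessory subunit of complex I, at 667 and 918 (log2 ratio 0.46), and Ndufa8, another accessory subunit, at 7628 and 10271 (0.43). The lowest ratios were those of Ndufaf1 (3338 and 2722, -0.29), Ndufv3, a subunit of the NADH-binding arm of complex I (4483 and 3817, -0.23), and Cox6b2 (1144 and 1029, -0.15). By complex, the medians were 0.04 for complex I, 0.02 for complex II, 0.01 for complex III, 0.08 for complex IV and -0.03 for complex V.

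The steadiest genes over all 6 arrays included the core protein Uqcrc1 of complex III, which ran from 18515 to 20563, a range of 0.15 in log2; the small subunit Uqcr11 spanned 0.29. Cox5b of complex IV, which binds zinc, ran from 17161 to 19848 (0.21), Cox7a2l, a factor of supercomplexes, spanned 0.45, and Ndufb7 and Ndufa9 of complex I spanned 0.21 and 0.23. In complex II the iron-sulfur subunit Sdhb spanned 0.27 and the membrane anchor Sdhc 0.32; in complex V the coupling subunit Atp5j spanned 0.33 and Atp5a1, the alpha subunit of the F1 head, 0.41. The median range of the 63 genes was 0.52, against 0.56 for the brightest 25% and 0.83 for all genes compared, so the steadiness was shared with other bright genes.

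In the Clock mutant most subunit genes were lower at CT14 than at CT02. The median log2 ratio was -0.23, with 50 of 63 lower, 12 higher and 1 at the floor on both arrays. None was 2-fold apart, where 7.74% of all genes were (4.31% higher and 3.43% lower) and 2.48% of the brightest 25%. The brightest 25% of all genes also had a median below 0 on this pair of arrays, at -0.14, and the brightest 10% had -0.29. When the arrays were instead brought to the same distribution by quantile normalization, or corrected by a smooth curve against intensity (lowess), the subunit genes' median relative to all genes was -0.02 or -0.03, so the size of the group's difference depended on the scaling.

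All 8 genes of complex III were lower at CT14 in Clock mutants, from -0.57 for Uqcrq to -0.13 for Uqcrc1, with a median of -0.30; lowess correction put this median at -0.08. Complex I had 22 of 26 lower (median -0.22), complex IV 8 of 10 (median -0.30), complex II 3 of 4 (median -0.20) and complex V 8 of 13 (median -0.26). Relative to all genes, quantile normalization put complexes I, II, IV and V at 0.0026, 0.058, -0.059 and -0.072, so the sign of complexes I and II turned, and lowess correction put them at -0.0039, 0.057, -0.056 and -0.056. Complex V held both ends of the list. Atp5md and Atp5k, small subunits that help ATP synthase pair into dimers, read 17928 and 9900 (-0.86) and 6852 and 4308 (-0.67), and Atp5d, a subunit of the central stalk, read 3656 and 2345 (-0.64). In the other direction Atp5e, also of the central stalk, read 6643 and 11296 (0.77), and Atp5j2, a small membrane subunit, read 1075 and 1689 (0.65). Ndufs1, the largest core subunit of complex I, read 7216 and 10365 (0.52).

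In the mice labelled Cry-deficient the subunit genes were slightly lower at CT14. Their median was -0.11, with 42 lower and 21 higher, against -0.09 for the brightest 25% and 0.00 for all genes; quantile normalization or lowess correction put it at 0.03 or 0.02 relative to all genes. None was 2-fold apart, where 5.55% of all genes were (3.53% higher and 2.02% lower) and 1.57% of the brightest 25%. The lowest ratios were those of Cox8c (4534 at CT02 and 3323 at CT14, -0.45), the complex I accessory subunit Ndufa10 (3134 and 2330, -0.43) and Uqcrq, a small subunit of complex III (21666 and 16601, -0.38). Atp5j2 (962 and 1427, 0.57), Cox8b (727 and 1017, 0.48) and Atp5d (4540 and 6178, 0.44) had the highest.

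The 3 time comparisons share no array, so their signs can be set side by side. In all 3 genotypes 11 genes (17.5%) were lower at CT14, against 13.4% of all genes: Atp5k, Atp5l, Atp5md, Cox6a1, Cox8c, Ndufa10, Ndufa7, Ndufb5, Ndufb9, Sdhb and Uqcr10. Another 4 (6.35%, against 13.0%) were higher in all 3, namely Atp5j2, Cox8b, Ndufs1 and Sdha, which carries the succinate site of complex II. The place of Atp5l among the 11 depended on the probe set. Its second probe set was higher at CT14 in wild type (0.28), Clock mutants (0.58) and the mice labelled Cry-deficient (0.29). Bright genes in general also leaned lower at CT14 in both mutants, and these shares were not counted among them. Across the 63 genes, which share arrays and are not independent, the correlation of the time ratio was -0.03 for wild type with Clock mutants, 0.21 for wild type with the mice labelled Cry-deficient, and 0.35 for the latter with Clock mutants, against 0.02 to 0.03 over all genes.

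**Figure D2:**
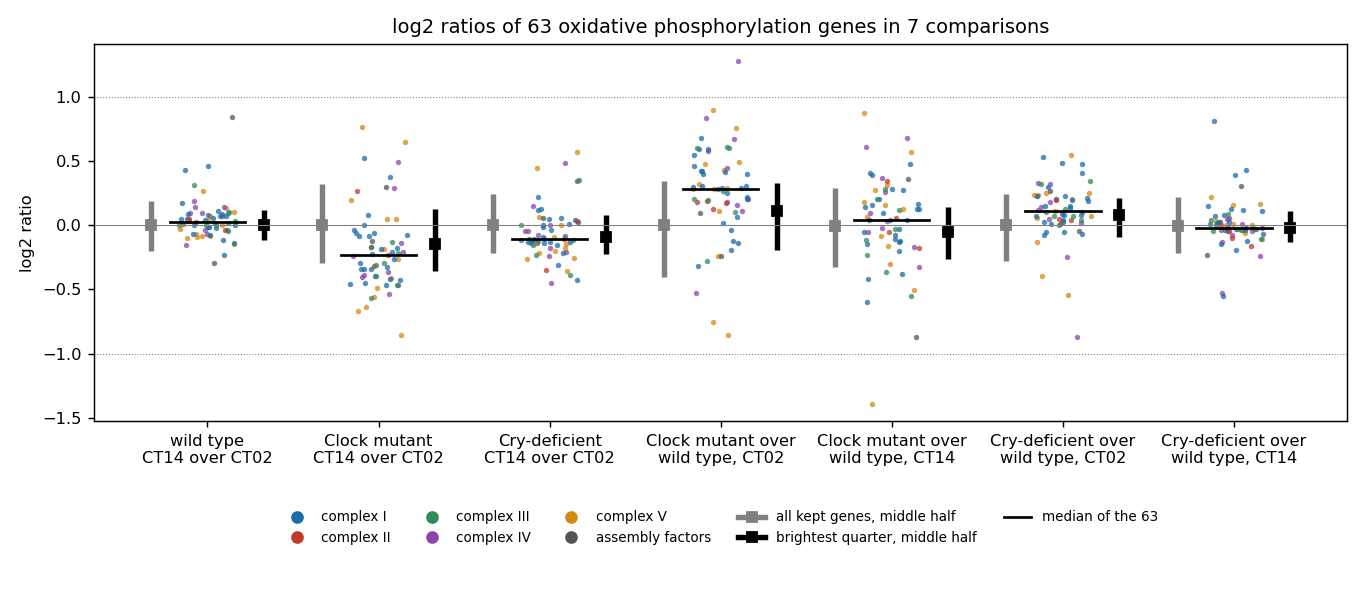
Log2 ratio of the 63 compared genes in the 7 comparisons, with 1 point per gene coloured by complex and a black bar at their median; squares and thick lines give the median and the middle 50% of all genes compared (grey) and of the brightest 25% (black), and dotted lines mark 2-fold. The wild-type time comparison is among the narrowest, and the Clock mutant comparison with wild type at CT02 has the highest median, 0.28.

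At CT02 most subunit genes were higher in Clock mutants than in wild type. The median log2 ratio was 0.28, with 52 of 63 higher and 11 lower, against 0.00 for all genes, 0.11 for the brightest 25% and 0.24 for the brightest 10%. The Clock mutant CT02 array was the highest of the 6 for 36 of the 63 genes (57.1%), against 37.2% of the brightest 25% and 25.6% of all genes. This is the array with the lowest mean intensity and with a raised Actb ratio, and the part of these differences in the result was not tested. Quantile normalization left a median of 0.13 relative to all genes and lowess correction 0.15, so the sign did not depend on the scaling. On the values as deposited, the subunit genes had a median of 0.25 relative to all genes.

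Each complex had a positive median here, at 0.30 for complex I, 0.18 for complex II, 0.24 for complex III, 0.32 for complex IV and 0.29 for complex V; quantile normalization brought complex III to 0.02 and complex II to -0.0014 relative to all genes. Within complex I the 4 core subunits and the 22 accessory subunits both had a median of 0.30. The 4 subunits of complex II were the tightest, from 0.13 to 0.19. In complex V the 9 genes of the outer stalk and the membrane part had a median of 0.32, with 8 higher, while the 4 compared genes of the catalytic F1 part were 2 higher and 2 lower. Atp5d, 1 of the latter 2, was higher on its other 3 probe sets above the floor.

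Cox4i1, a regulatory subunit of cytochrome c oxidase in the form of most tissues, was the only subunit gene 2-fold higher in Clock mutants at this time, where 4.25% of all genes were higher, 7.51% lower and 11.8% apart by that factor, the last share being 4.54% among the brightest 25%. It read 4569 (CT02) and 5035 (CT14) in wild type, 11107 and 7677 in Clock mutants, and 5745 and 5081 in the mice labelled Cry-deficient. Both Clock mutant values lay above the other 4, by 2.43-fold (log2 1.28) over wild type at CT02 and by 0.61 in log2 at CT14. These values come from an _f_at probe set. The gene's other probe set, which has no such letter, gave 0.49 at CT02 and, from 762 in wild type to a value below the floor, -0.33 at CT14.

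Atp5k followed with 3674 in wild type and 6852 in Clock mutants (0.90), and Cox7b, a small subunit of complex IV, with 11539 and 20666 (0.84). The lowest ratios were Atp5d with 6621 and 3656 (-0.86), Atp5e with 11184 and 6643 (-0.75) and Cox8b with 1329 and 923 (-0.53). The value of Atp5d is that of its brightest probe set, and its other 3 probe sets above the floor gave 0.25, 0.40 and 0.37. The shaft subunit Atp5c1 was at 0.50, and 10 of the 13 genes of complex V were higher.

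At CT14 the Clock mutant and wild type differed little as a group under the scaling used. The median of the subunit genes was 0.04, with 35 higher and 28 lower, against -0.05 for the brightest 25%. Quantile normalization or lowess correction put it at 0.11 or 0.12 relative to all genes, near the 0.13 or 0.15 at CT02. The gap between the times therefore depended on the scaling. The only gene 2-fold apart was Atp5d, where 9.76% of all genes were (4.13% higher and 5.64% lower) and 4.71% of the brightest 25%. By complex the medians ran from -0.07 for complex III to 0.13 for complex V. Relative to all genes, complex V was at 0.20 after quantile normalization and 0.21 after lowess correction.

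Atp5d read 6621 and 6172 in wild type, 3656 and 2345 in Clock mutants and 4540 and 6178 in the mice labelled Cry-deficient, so both Clock mutant values were the lowest of the 6. The fold was 2.63 (log2 -1.40) at CT14. It was not shared by the gene's other probe sets. A second _f_at probe set read 3704 and 3640 in wild type and 4878 and 5042 in Clock mutants, log2 ratios of 0.40 and 0.47, and another gave 0.25 at CT02. A probe set with no letter in its name read 625 and 629 in wild type and 808 and 732 in Clock mutants, or 0.37 and 0.22. The direction of Atp5d in Clock mutants therefore depended on the probe set, and the mean over its probe sets gave -0.08 at CT02 and -0.24 at CT14.

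Below Atp5d at CT14 came Ndufaf4 (2961 in wild type and 1623 in Clock mutants, -0.87) and Uqcr10, a small subunit of complex III (16718 and 11437, -0.55). Higher were Atp5g2, which encodes the proton-carrying c subunit of ATP synthase (2934 and 5385, 0.88), Cox6b2 (1029 and 1652, 0.68) and Cox4i1 (5035 and 7677, 0.61). All 3 of the latter were read by _f_at probe sets.

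The comparisons at CT02 and at CT14 share no array. Across the 63 genes the Clock mutant ratios at the 2 times correlated at r = 0.50 (rho 0.38), against 0.38 over all genes and 0.40 over the brightest 25%, and at 0.34 without Cox4i1 and Atp5d, so part of it rested on those genes. Past 0.3 in log2 at both times, 6 genes were higher in Clock mutants (9.52%, against 11.1% of all genes): Atp5g2, Atp5k, Cox4i1, Cox6b2, Cox7b and Ndufab1, the last being the acyl carrier protein of complex I. Atp5g2 was the most even of these, at 3078 and 2934 in wild type, 5204 and 5385 in Clock mutants and 2812 and 2948 in the mice labelled Cry-deficient. Its Clock mutant values stood clear of the other 4, and its second probe set was above the floor on the Clock mutant CT02 array alone, at 773. Ndufab1 read 9040 and 8344 in wild type and 12110 and 11614 in Clock mutants. Only Atp5d (1.59%, against 12.8% of all genes) was lower past 0.3 at both times.

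**Figure D3:**
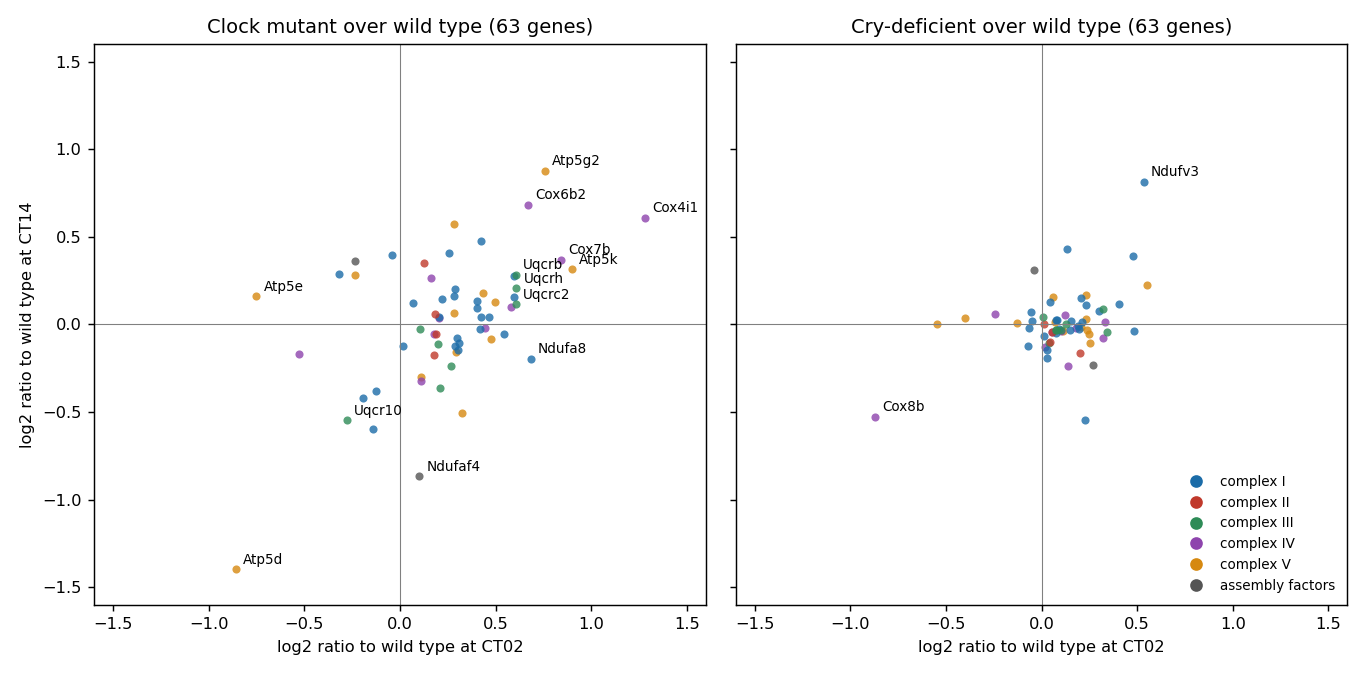
Log2 ratio of mutant over wild type at CT14 (vertical axis) against that at CT02 (horizontal axis) for Clock mutants (left) and the mice labelled Cry-deficient (right), with 1 point per compared gene coloured by complex. Cox4i1 and Atp5d lie farthest out for Clock mutants, and Ndufv3 and Cox8b for the mice labelled Cry-deficient.

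In the mice labelled Cry-deficient the subunit genes were close to wild type at both times. At CT02 the median was 0.11, with 53 higher and 10 lower, against 0.08 for the brightest 25%, and quantile normalization or lowess correction left 0.02 or 0.01. At CT14 it was -0.02, with 30 higher and 33 lower, and 85.7% of the genes lay within 0.2 of 0, against 47.0% of all genes, 67.0% of the brightest 25% and 80.4% of the brightest 10%. None was 2-fold apart at CT02, where 6.69% of all genes were (2.73% higher and 3.96% lower), nor at CT14, where 4.73% were (2.46% higher and 2.27% lower). Among the brightest 25% these shares were 3.06% and 1.90%. The raised Actb and Gapdh ratios of the CT02 array stand beside its values, and their part was not tested.

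Ndufv3 read 4483 and 3817 in wild type, 3592 and 4656 in Clock mutants and 6489 and 6713 in the mice labelled Cry-deficient, with log2 ratios over wild type of 0.53 and 0.81. Both values of the last pair were above the other 4. Ndufs1 showed 0.48 and 0.39, from 7417 and 7882 in wild type to 10316 and 10347, but its Clock mutant CT14 value, 10365, was as high. Cox8b was lower at both times, at 1329 and 1465 in wild type and 727 and 1017 in the mice labelled Cry-deficient (-0.87 and -0.53); its second probe set was below the floor on every array.

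Other genes stood out at a single time. At CT02 Atp5o, which links the stalk of ATP synthase to its head, read 8653 in wild type and 12678 (0.55), Ndufa8 read 7628 and 10666 (0.48), Atp5d -0.54 in log2 and Atp5j2 -0.40. At CT14 Ndufa2 was at 0.43 (6881 and 9275), Ndufc2 at -0.55 against a value close to the floor, and Cox8c at -0.24. Across the 63 genes the ratios at the 2 times correlated at r = 0.38 but with a rank correlation of 0.15, against 0.16 and 0.15 over all genes.

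The complexes differed more in spread than in median. In the 7 comparisons the largest gap between complex medians was found for Clock mutants over wild type at CT14, from -0.07 for complex III to 0.13 for complex V. It was followed by that of the mice labelled Cry-deficient over wild type at CT02, from 0.05 for complex II to 0.21 for complex V. The SD over genes of complex V was 0.52 and 0.55 in Clock mutants against wild type at CT02 and CT14, that of complex IV 0.49 and 0.33, and that of complex I 0.26 at both. In the comparison of the mice labelled Cry-deficient with wild type at CT14 these were 0.10, 0.18 and 0.24. Complexes IV and V held 7 of the 12 compared genes represented by _f_at probe sets. Among these were Atp5d, at -0.86 and -1.40 in Clock mutants over wild type at CT02 and CT14, and Cox4i1, at 1.28 and 0.61. The other Atp5d probe sets above the floor lay between 0.00 and 0.47 there, and the other Cox4i1 probe set gave 0.49 and -0.33. The part of the _f_at probe sets in the spread was not tested.

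Of the 72 genes, 21 had more than 1 probe set, and 8 had a pair of probe sets that were both above the floor in a comparison. Over the 13 such pairs and 78 ratios, the median difference between probe sets of a gene was 0.21 in log2 and the highest 1.87, and 31 of the 78 had opposite signs. In Clock mutants over wild type at CT02 both probe sets were higher for Atp5c1, the central shaft of ATP synthase (0.50 and 0.37), and for Ndufb2 of complex I (0.59 and 0.38). Both were also higher for Atp5l, Cox4i1 and Cyc1. The signs were opposite for Cox6c of complex IV (0.44 and -0.14) and Ndufv2 of complex I (0.30 and -0.12). They were also opposite in the time comparison of Clock mutants, for Cox6c (-0.37 and 0.26) and for Ndufv2 (-0.26 and 0.49). In that time comparison the probe sets of Atp5c1 gave -0.26 and 0.03, and at CT14 those of Ndufb2 gave 0.16 and -0.02 in Clock mutants over wild type. Agreement was poor for Atp5l, whose main probe set gave -0.49 and whose _f_at probe set gave 0.58 in the time comparison of Clock mutants, and for Atp5d. For Cyc1, the haem-bearing subunit of complex III, the same comparison gave -0.46 and -0.10.

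**Figure D4:**
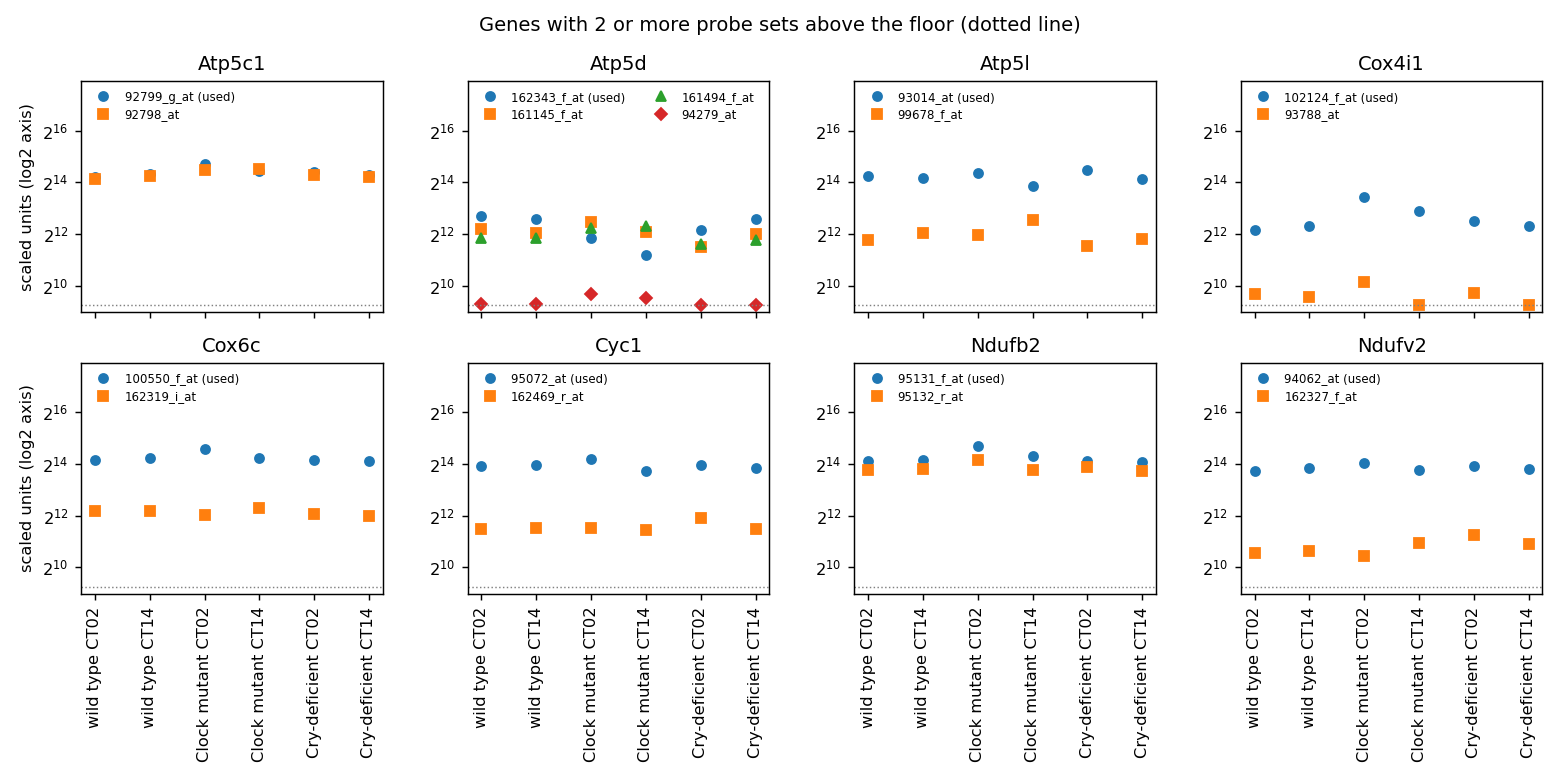
Scaled intensity (log2 axis) on the 6 arrays of the probe sets above the floor for the 8 genes with several such probe sets, with 1 marker shape per probe set, the one that represents the gene marked as used, and the floor as a dotted line. The probe set used for Atp5d is lowest on both Clock mutant arrays, and the gene's other probe sets are not.

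An additive model of genotype and time, fitted with limma to all 4844 genes, allows a test of differences shared by both times or by all 3 genotypes. It has 2 residual degrees of freedom, and it counts any difference of the time effect between genotypes as error. With Benjamini-Hochberg adjustment over all genes, none of the 63 subunit genes passed an adjusted p of 0.05 in any contrast, where 0 genes (0%) passed for CT14 over CT02, 2 (0.0413%) for Clock mutants over wild type and 0 (0%) for Cry-deficient over wild type. At an unadjusted p of 0.05 the subunit genes numbered 0, 6 (9.52%) and 2 (3.17%), against 4.64%, 15.9% and 6.52% of all genes. The shares were below those of all genes in each contrast.

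The 6 genes for the Clock mutant were Atp5g2 (log2 difference 0.82, SE 0.20, limma adjusted p = 0.170), Cox4i1 (0.94, SE 0.25, adjusted p = 0.180), Atp5d (-1.13, SE 0.30, adjusted p = 0.190), Cox6b2 (0.68), Cox7b (0.60) and Atp5k (0.61), the last 3 with limma adjusted p of 0.223 to 0.312. For the mice labelled Cry-deficient they were Cox8b (-0.70, SE 0.22, limma adjusted p = 0.682) and Ndufv3 (0.67, SE 0.24, limma adjusted p = 0.693). Refitted without the CT02 array labelled Cry-deficient, with scaling, floor and filter taken anew and 1 residual degree of freedom, a fit chosen after seeing the data, limma called Atp5d alone of the subunit genes (-1.13, adjusted p = 0.0288), while the calls over all genes went from 2 to 264. In both fits Atp5d and Cox4i1 stand for their brightest probe sets. Over wild type in Clock mutants, the other Atp5d probe sets above the floor gave 0.25, 0.40 and 0.37 at CT02. At CT14 they gave 0.00, 0.47 and 0.22. The other Cox4i1 probe set gave 0.49 at CT02 and, to a value below the floor, -0.33 at CT14. For the time contrast the lowest unadjusted p was that of Atp5j2 (0.45, SE 0.19, limma adjusted p = 0.896).

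Other genes of mitochondrial energy metabolism were taken from fixed lists, and none passed the adjusted threshold of the additive fit in any contrast (limma, Benjamini-Hochberg over all genes). At an unadjusted limma p under 0.05, Dhodh and Hccs were higher at CT14. Coq3, Slc25a3 and Gabpb1 were higher and Pcx and Hccs lower in Clock mutants, and Idh3g was higher and Ppara lower in the mice labelled Cry-deficient. The lists held 15, 9, 9, 16, 9 and 5 compared genes, and 4.64%, 15.9% and 6.52% of all genes passed in these contrasts. Single names at this threshold therefore say little about the lists. The 15 compared genes of the tricarboxylic acid cycle supply the chain with NADH and succinate, and the medians of the list over wild type at CT02 were 0.03 in Clock mutants and 0.15 in the mice labelled Cry-deficient. The 9 electron carriers and feeders had a Clock mutant median at CT02 of 0.31. Among them Dhodh, which passes electrons from pyrimidine synthesis to ubiquinone, read 2266 and 2296 in wild type, 807 and 2355 in Clock mutants and 525 (below the floor) and 3217 in the mice labelled Cry-deficient. It was low at CT02 in both mutants, which share the wild-type array. Both of these mutant arrays had a raised Actb ratio, whose part was not tested.

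Among 9 carriers and channels, Slc25a1, which exports citrate from mitochondria, read 13240 in wild type and 5222 in the mice labelled Cry-deficient at CT02 (2.54-fold lower), and Slc25a10, the dicarboxylate carrier, 8486 and 2790 (3.04-fold lower). At CT14 their log2 ratios to wild type were 0.12 and -0.18. The part of the raised Actb and Gapdh ratios of the CT02 array was not tested. The phosphate carrier Slc25a3 was at least 2.70-fold higher in Clock mutants at CT02, at 1637 against a value below the floor. Of 16 assembly and import genes, Timm10 alone was 2-fold apart, at 884 in wild type and 1806 in Clock mutants at CT14; this is 6.25% of the list, below the 9.76% of all genes in that comparison. The 5 antioxidant genes held none, where 4.56% to 11.8% of all genes were 2-fold apart in the 7 comparisons.

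Of the 9 compared regulators, Esrra read 4597 and 4573 in wild type, 4375 and 3733 in Clock mutants and 1455 and 4264 in the mice labelled Cry-deficient. Its CT02 value in the last was 3.16-fold below wild type, and the part of that array's raised Actb and Gapdh ratios was not tested. The 5 subunit genes whose promoter held the ERRalpha motif, Atp5e, Atp5k, Atp5l, Ndufb2 and Sdhd, were at 0.23, 0.07, 0.24, 0.01 and 0.20 in that comparison. The second probe set of Atp5l gave -0.24. The median of all subunit genes there was 0.11, and 0.02 or 0.01 relative to all genes after quantile normalization or lowess correction. A link between these values and Esrra was not tested. Nampt acts in the synthesis of NAD, which carries electrons to complex I. Its level was at least 4.14-fold higher at CT14 than at CT02 in wild type and at least 2.31-fold in Clock mutants. In the mice labelled Cry-deficient it read 1867 and 1645, a log2 ratio of -0.18. Its CT02 value there was at least 3.08-fold above wild type. Gabpb1, which encodes a subunit of GABP, was at 1050 and 874 in wild type and 1893 and 1357 in Clock mutants.

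Other gene families of large complexes showed part of the same pattern. The 24 compared cytosolic ribosomal protein genes had medians of -0.40 in the time comparison of Clock mutants and -0.22 in that of the mice labelled Cry-deficient, below those of the subunit genes, and of 0.17 and -0.20 in Clock mutants over wild type at CT02 and CT14. The 34 proteasome genes had -0.15 and -0.07 in those time comparisons and 0.02 and -0.03 in those with wild type. The 55 mitochondrial ribosomal protein genes had -0.08, 0.06, 0.24 and 0.04 in the same order. At CT02 in Clock mutants the subunit genes' 0.28 stood beside 0.24 for the mitochondrial ribosome and the brightest 10% of all genes, 0.27 for assembly and import genes and 0.31 for both the electron carriers and feeders and the carriers and channels; these differences were not tested.

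**Figure D5:**
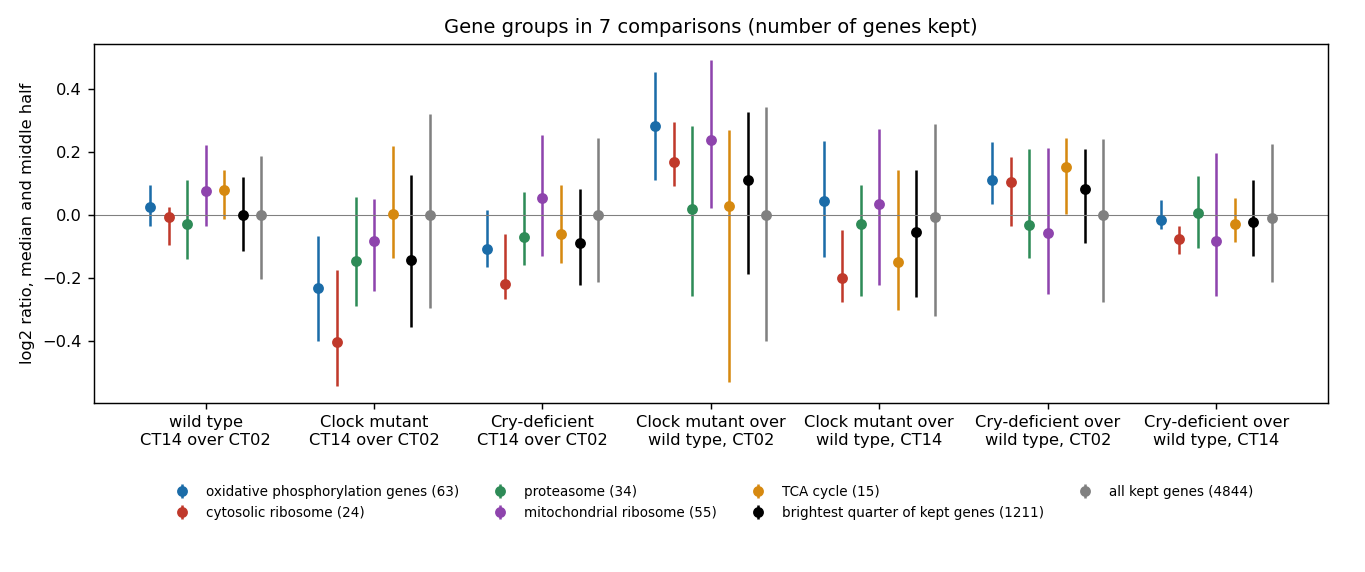
Median log2 ratio (points) and middle 50% (lines) in the 7 comparisons of the 63 oxidative phosphorylation genes, of cytosolic ribosome, proteasome, mitochondrial ribosome and tricarboxylic acid cycle genes, of the brightest 25% and of all genes compared. The oxidative phosphorylation genes have a median of -0.23 in the time comparison of Clock mutants and of 0.28 in Clock mutants over wild type at CT02.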

How the data were processed

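Total RNA of liver was measured on 6 arrays, 1 per group, grouped by their titles. The authors deposited a single intensity for every probe set of an array, in whole numbers with negative values among them; the software and any subtraction of background were not given in the sources used here. Of 12488 probe sets, 66 are controls, 10855 carry 1 gene symbol, 396 several and 1237 none in the platform's annotation. Those with 1 were used, and all 72 symbols of the genes described matched the RefSeq table (GRCm38.p6) by gene number. Each array was divided by its median ratio to the mean array (geometric) over 6065 bright probe sets (log2 offsets -0.43 to 0.20), floored at 606 and put on the log2 scale. No replicate error was available, and signal above background limits dim genes. The additive model was fitted with limma 3.58.1 in R 4.3.3; the rest used Python 3.11.15, pandas 2.3.3 and statsmodels 0.14.6, and the fit was tested on simulated data. Promoters were searched by exact match.

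The genes, the lists of other genes, the motifs and the tests were chosen with earlier results of these data known. The division of complexes into core, stalk and other parts was made after their values were seen. Named with values are the 3 highest and 3 lowest ratios of each comparison, genes 2-fold apart, isoform families, the 2 steadiest genes of each complex, genes whose probe sets disagree, and the 5 genes most like the group's mean; others were named after their values were seen. Cox4i2, Cox7b2, Ndufa4, Ndufa4l2 and Atp5g3 of the isoform families were not analysed here, having no probe set with 1 symbol in the table used. Alternatives were no scaling, quantile normalization, lowess (span 0.3), a lower floor (25th percentile), no filter or one at the 75th percentile, other choices of probe set, thresholds of 1.5-fold and 3-fold, no assembly factors or isoforms of other tissues, and leaving out arrays.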

Additional observations from a re-analysis of the deposited data

How the results depend on the processing

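Medians here are relative to all genes, and a median was taken as moved past 0.21 in log2, the median disagreement of probe sets. Since 32 of the 42 medians are themselves smaller than this, staying within it says little; 27 of 438 recomputed medians turned their sign, 11 under quantile normalization and 10 under lowess correction. Among them was the time median of all 63 genes in mice labelled Cry-deficient (-0.11, against 0.03 and 0.02), and that in Clock mutants went from -0.23 to -0.02 and -0.03. In the time comparison of Clock mutants, quantile normalization turned complex I to 0.0026 and gave 0.058 for complex II and -0.059 for complex IV, and lowess correction gave 0.057, -0.078 and -0.056 for complexes II, III and IV. At CT02, quantile normalization gave complex III 0.016 in Clock mutants relative to wild type. Without scaling, all genes shifted by 0.45 and 0.20 (time comparisons of Clock mutants and of mice labelled Cry-deficient) and by -0.52 and -0.11 (these mice relative to wild type at CT02), and 3 subunit genes were 2-fold apart in the Clock mutants' time comparison and 3 at CT02 relative to wild type. A floor at the 25th percentile, which keeps more dim genes, gave 3, 2 and 1 in the time comparisons of wild type, Clock mutants and mice labelled Cry-deficient, 4 and 3 for Clock mutants relative to wild type at CT02 and CT14, and 1 for mice labelled Cry-deficient at CT14. At 1.5-fold the counts were 1 and 5 for time in wild type and Clock mutants, 13 and 6 for Clock mutants at the 2 times, and 1 and 1 for mice labelled Cry-deficient; at 3-fold they were 0 for Clock mutants at both times. The mean over a gene's probe sets gave 2 and 0 for Clock mutants at CT02 and CT14, and probe sets with no letter in the name gave 0 and 0, as Cox4i1 and Atp5d lost theirs; Cox4i1 turned to -0.33 at CT14. Other cases were not tested for cause. The shares of all genes under these alternatives were not counted, so the counts show only how far they moved. In the additive limma fit, leaving out any single array with the scaling kept called 0 subunit genes in each contrast; with scaling, floor and filter taken anew without the CT02 array labelled Cry-deficient, an alternative chosen after seeing the data, 1 was called. No paired analysis was possible because each group had 1 array and no replicate number pairs arrays; the additive fit does take CT14 minus CT02 within each genotype. Of the named genes' ratios, 21 moved past 0.21 and 1 turned. Dim signal limited 9 of the 72 genes.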

Other observations

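Probe sets that carry several gene symbols were not used above, and 10 of them include a symbol of the same rule. A pair of these name Cox7c, a small subunit of cytochrome c oxidase, together with the predicted gene Gm12338. The _f_at one of the pair read 14986 (CT02) and 13580 (CT14) in wild type, 15086 and 8425 in Clock mutants, and 17624 and 12900 in the mice labelled Cry-deficient. Its _r_at partner read 4663 and 4299, 3788 and 992, and 7232 and 3951 in the same order. Both were lowest on the Clock mutant CT14 array, with log2 ratios to wild type of -0.69 and -2.12, and both were highest on the CT02 array labelled Cry-deficient. The latter ratio is outside the range of the 63 genes compared, of which the lowest at that time was -1.40.

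The probe set shared by Ndufab1 and its pseudogene, of the _f_at type, read 4522 and 5137 in wild type and 8237 and 6733 in Clock mutants, log2 ratios of 0.87 and 0.39, where the gene's own probe set gave 0.42 and 0.48. Ndufs5 and Ndufs6, iron-sulfur fragment subunits of complex I, were read only by such shared probe sets. At CT02 they gave 0.42 for Ndufs5 and 0.28 and 0.36 for Ndufs6 in Clock mutants relative to wild type, near the complex I median of 0.30.

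Over the 6 arrays, the genes whose log2 level followed the mean of the 63 genes most closely were Mgst1 (r = 0.995), Samd10 (0.985), Acot13 (0.983), Ntn1 (0.983) and the subunit gene Ndufa3 (0.983). The mean of the 63 genes stood 0.17 above its average on the Clock mutant CT02 array, 0.02 above it on the CT02 array labelled Cry-deficient, and 0.02 to 0.09 below it on the other 4. These correlations describe 6 arrays and were given no test.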
